A study of Mus musculus with 126 samples.

Results

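H19 and Igf2 are a pair of neighbouring imprinted genes on mouse chromosome 7, and this account follows their transcript levels in embryonic stem cells that lacked DNA methyltransferases, were exposed to a histone deacetylase inhibitor, or both. Both were taken by name from the deposited table of RNA-seq counts, where they are 2 of 23420 listed genes, and both passed the filter on low counts that left 15822 genes for testing. The question put to them was whether they move in opposite directions, as genes under one shared control region can, and whether this also holds under the inhibitor.

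The series concerns DNA methylation, histone acetylation and transcription factor occupancy in mouse embryonic stem cells. Its 126 samples include 8 RNA-seq libraries, which were used here. The cells were of strain J1, either wild type or Dnmt1-/-, Dnmt3a-/-, Dnmt3b-/- TKO (triple knockout), the latter without the 3 enzymes that set and maintain DNA methylation. Both genotypes were cultured on gelatin in serum with leukaemia inhibitory factor, and received Trichostatin A (TSA), an inhibitor of histone deacetylases, at 5 ng/µl for 36 h by the labels, a concentration unit that could not be checked here, or 0.0033% DMSO, the solvent, as the control. Cells given DMSO are called control cells below. Each of the 4 combinations had 2 libraries that the series calls biological replicates. The labels do not say from which cultures or clones they came, so p-values measure the spread between these libraries.

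As background, H19 is a long non-coding RNA transcribed from the maternal chromosome, and Igf2 encodes insulin-like growth factor 2, a fetal growth factor transcribed from the paternal chromosome. A control region between them is methylated on the paternal chromosome. On the maternal chromosome the unmethylated region binds the insulator protein Ctcf, which keeps shared enhancers from Igf2 and leaves them to H19. The counts do not separate the parental alleles, and neither methylation nor acetylation at the region was analysed here.

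In the deposited exon coordinates (build mm10), H19 lies on the minus strand at chromosome 7, 142575532 to 142578146, as 1 exon of 2615 bases. Igf2 lies on the same strand at 142650768 to 142661035, with 6 exons that sum to 4236 bases. Their nearest ends are 72621 bases apart. Each gene hosts a miRNA. Mir675 (142577064 to 142577147) sits inside the H19 exon, and Mir483 (142654924 to 142654996) inside an Igf2 intron. Their mature forms are shown because they are the known small RNA products of the pair. The sequences are from RefSeq on GRCm38.p6, 5′ to 3′, with the seed, bases 2 to 8, in capitals.
miR-675-5p: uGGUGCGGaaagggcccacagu
miR-675-3p: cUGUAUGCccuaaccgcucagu
miR-483-5p: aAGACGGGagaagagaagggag
miR-483-3p: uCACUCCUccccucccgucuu
The 4 seeds differ from each other. The deposited table listed Mir675 at 0 counts in each of the 8 libraries and Mir483 at 0 to 3 counts. For Mir483 a count of 0 allows a level of up to 0.193 to 0.226 CPM (counts in each 1e+06 of the library), counting error alone considered. The Mir675 entry shares its 84 bases with H19, 3.21% of the H19 exon. With H19 at 484 to 65210 counts, reads of the shared bases were evidently not credited to Mir675. Its 0 therefore sets no ceiling on its level. Whether such reads were credited to H19 or dropped is not given in the sources used here. These libraries were made from total RNA and are not a measure of the mature miRNAs.

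RefSeq gives 4 Igf2 start sites in its promoter table, and the start of the third, 142658804, is also the start of an exon in the deposited annotation. The 250 bases before it are shown because they are dense in CpG, the dinucleotide that the deleted enzymes methylate. This window holds 22 CpG, where 85.2% of 32851 promoter windows of the same length hold fewer and the median window holds 6. Letters in capitals match GGGCGG, a motif of SP1, on either strand.
Igf2, chr7:142658805-142659054, minus strand: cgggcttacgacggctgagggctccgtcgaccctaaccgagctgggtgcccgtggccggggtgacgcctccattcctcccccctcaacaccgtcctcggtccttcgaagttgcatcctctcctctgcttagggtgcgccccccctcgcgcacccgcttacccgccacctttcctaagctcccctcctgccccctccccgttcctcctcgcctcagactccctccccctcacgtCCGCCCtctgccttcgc
The window has 1 such match. The window of the fourth start site (142657497 to 142657746) has 2 and holds 6 CpG, and the other two windows have none. The motif was found in 32.7% of all windows. The counts are per gene and do not show which start site was used.

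The libraries held 13280631 to 15542527 counts. Replicates differed by more than sampling noise in each group, with a chi-square per degree of freedom of 4.54 to 10.3. The targeted genes were lower in TKO, with Dnmt1 at 29.2%, Dnmt3a at 12.5% and Dnmt3b at 7.59% of wild type in DMSO, and at 34.3%, 22.0% and 19.1% in TSA. The table does not say which part of each gene was deleted.

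H19 was lowest in control wild type cells and highest in TKO cells with TSA, while Igf2 was lowest in control TKO cells and highest in wild type cells with TSA. H19 stood at 34.5 and 73.4 normalised CPM (CPM after TMM scaling between libraries) in the control wild type libraries, a mean of 53.96 ± 27.5 (SD, n = 2). It stood at 205 and 426 CPM in TSA-treated wild type cells (315 ± 157) and at 267 and 425 CPM in control TKO cells (346 ± 112). These last pairs of libraries overlapped. In TSA-treated TKO cells it reached 2688 and 4093 CPM, and its reads were 0.279% and 0.435% of all counts in those libraries.

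Igf2 stood at 62.8 and 80.04 CPM in control wild type cells (71.4 ± 12.2; SD, n = 2) and at 143 and 221 CPM in TSA-treated wild type cells (182 ± 54.6). In control TKO cells it stood at 9.57 and 9.96 CPM (9.77 ± 0.276), from 140 and 137 reads. In TSA-treated TKO cells it stood at 27.8 and 43.6 CPM (35.7 ± 11.2). No pair of groups overlapped for Igf2, and its order, from control TKO cells through TSA-treated TKO cells and control wild type cells to TSA-treated wild type cells, differs from that of H19. Such separation was common in single comparisons of groups, at 59.8% to 82% of tested genes, and its share over all pairs of groups together was not computed.

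**Figure D1:**
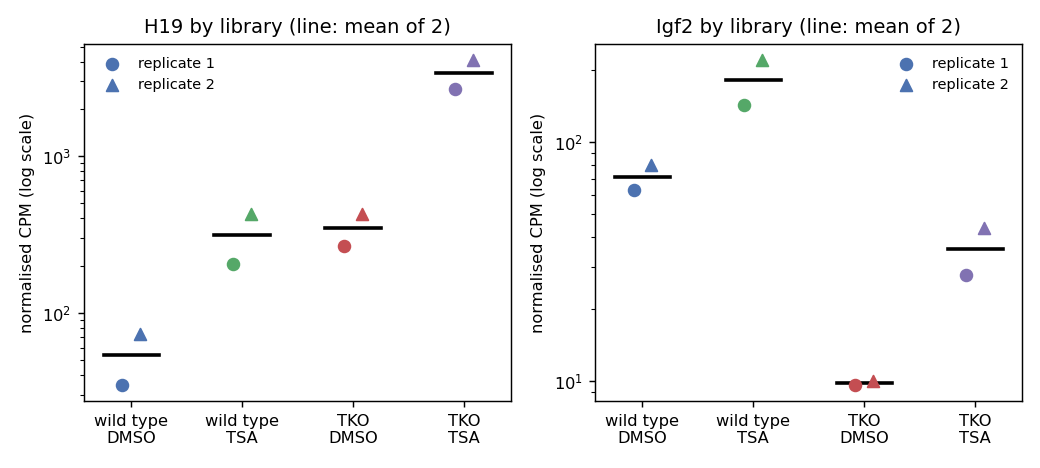
Normalised CPM of H19 and Igf2 in each of the 8 libraries on a log axis, with symbols for libraries and lines for the mean of 2. H19 is highest in TSA-treated TKO cells at 2688 and 4093 CPM, and Igf2 is lowest in control TKO cells at 9.57 and 9.96 CPM.

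The levels of the genes were compared with each other per kilobase of exon (RPKM). In control wild type cells, H19 had a mean of 20.6 RPKM and Igf2 16.9. In TSA-treated wild type cells they had 121 and 42.98 RPKM, in control TKO cells 132 and 2.31, and in TSA-treated TKO cells 1296 and 8.43. Ranks by mean RPKM over the 2 libraries were taken among the 15822 tested genes. H19 moved from rank 4670 in control wild type cells to rank 7 in TSA-treated TKO cells. Igf2 went from rank 5354 in control wild type cells to rank 10775 in control TKO cells.

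TSA was followed by higher levels of both genes in both genotypes, so the pair did not move in opposite directions under the inhibitor. In wild type cells H19 was 5.84-fold higher with TSA (log2 fold change 2.55 ± 0.40 SE, adjusted p = 0.000417) and Igf2 2.55-fold higher (1.35 ± 0.22, adjusted p = 0.000523). In TKO cells H19 was 9.79-fold higher with TSA (3.29 ± 0.40, adjusted p = 5.15e-05) and Igf2 3.65-fold higher (1.87 ± 0.26, adjusted p = 0.000126). In both genotypes each TSA library was above each DMSO library for both genes. Such separation of the libraries was common, at 77% of tested genes in wild type and 82% in TKO. TSA called 52.8% of tested genes in wild type (27% higher, 25.9% lower) and 58.7% in TKO (30.8% higher, 27.9% lower), so 2 of 2 genes called higher stands against a wide background. Its size set H19 further apart, since 661 genes in wild type and 474 in TKO had a greater log2 fold change with TSA. For Igf2 these numbers were 2034 and 1512. Scaled by total counts alone, the genes called with TSA were 5809 higher and 2437 lower in wild type, in place of 4266 and 4092, and the median log2 fold change over all genes was 0.22 in place of 0.01, less than the change of either gene. In TKO they were 5904 and 3268 in place of 4872 and 4412, with the median at 0.19. The H19 value in wild type was 1.93 without TSA-treated wild type replicate 2 and 3.18 without control wild type replicate 2.

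Between TKO and wild type the pair differed in opposite directions, in DMSO and in TSA alike. Loss of the methyltransferases and other differences between the lines cannot be told apart. In DMSO, H19 was 6.41-fold higher in TKO than in wild type (log2 fold change 2.69 ± 0.40 SE, adjusted p = 0.00108), and Igf2 was 7.31-fold lower (-2.87 ± 0.26, adjusted p = 4.67e-05). In TSA, H19 was 10.7-fold higher in TKO (3.43 ± 0.40, adjusted p = 0.000329), and Igf2 was 5.10-fold lower (-2.35 ± 0.23, adjusted p = 0.000125). The libraries of the genotypes did not overlap for either gene in either treatment, as for 59.8% of tested genes in DMSO and 63% in TSA. TKO called 20.4% of tested genes in DMSO (9.62% higher, 10.7% lower) and 18.4% in TSA (10% higher, 8.38% lower). In DMSO, 193 genes rose further than H19 and 118 fell further than Igf2. In TSA the numbers were 80 and 79. Without control wild type replicate 2 the H19 difference in DMSO was 3.32, and without TSA-treated wild type replicate 2 that in TSA was 4.05. The calls over all genes depend more on single libraries than those of the pair, with 1458 in place of 3220 genes called in DMSO without control TKO replicate 2 and 941 in place of 2910 in TSA without TSA-treated wild type replicate 1.

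**Figure D2:**
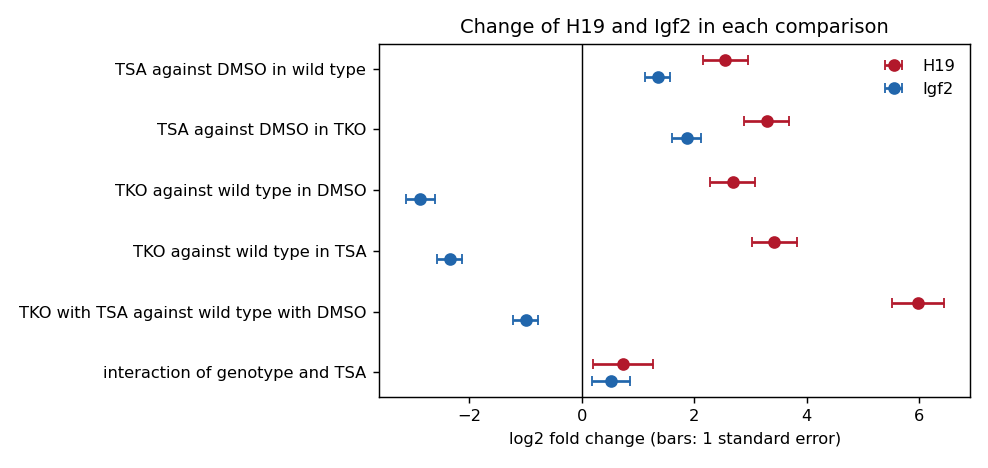
Log2 fold change of H19 and Igf2 in the 5 comparisons of groups and in the interaction, with bars of 1 standard error. Both genes lie to the right of 0 in the TSA comparisons, and on opposite sides of 0 in the comparisons that involve TKO against wild type.

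With both changes together, TKO cells with TSA had 62.8-fold more H19 than control wild type cells (log2 fold change 5.98 ± 0.46 SE, adjusted p = 2.73e-06), and 119 of 15822 genes had a greater value. Without control wild type replicate 2 it was 6.61. Igf2 was 2.00-fold lower in the same comparison (SE 0.23 on the log2 scale, adjusted p = 0.00281), so the rise with TSA did not bring Igf2 in TKO back to its control wild type level. No libraries overlapped for either gene, as for 80.2% of tested genes, and 61.9% of tested genes were called (31.7% higher, 30.2% lower). The comparisons share groups of libraries and are not independent of each other.

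The interaction, the TSA effect in TKO less the TSA effect in wild type, was a log2 difference of 0.74 ± 0.53 SE for H19 (95% interval -0.43 to 1.91, adjusted p = 0.582) and 0.52 ± 0.34 for Igf2 (-0.22 to 1.26, adjusted p = 0.532). In the main fit, without a replicate block, neither passed the test, for which 1.35% of genes were called. Both intervals include 0 and differences above 1. With the replicate number as a block in the edgeR fit, H19 passed (0.76, adjusted p = 0.0277) and Igf2 did not (adjusted p = 0.154). When single libraries were left out of the main fit, the H19 value ranged from 0.10 without control wild type replicate 2 to 1.36 without TSA-treated wild type replicate 2.

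The 4-way pattern of each gene was shared by few tested genes. Both patterns were defined from the calls of the pair and no other pattern was counted, so the shares are a description. Of 15822 tested genes, 3470 (21.9%) were called higher with TSA in both genotypes. Of these, 253 (1.6% of tested genes) were also called higher in TKO in both treatments, as H19 was. A further 189 (1.19%) were called lower in TKO in both treatments, as Igf2 was.

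The balance of the pair within a library needs no scaling between libraries. The H19 to Igf2 ratio per kilobase was 0.891 and 1.49 in control wild type cells, 2.31 and 3.13 in TSA-treated wild type cells, 45.1 and 68.9 in control TKO cells, and 156 and 152 in TSA-treated TKO cells. The 4 groups did not overlap, and how often the ratio of other gene pairs separates them was not computed. Averaged over treatments, the log2 ratio was 5.72 higher in TKO than in wild type, and averaged over genotypes it was 1.35 higher with TSA than with DMSO. For both, an exact two-sided permutation test within strata gave p = 0.0556, the smallest that its 36 arrangements allow. Without TSA-treated wild type replicate 2 the TSA difference was 1.24 (exact permutation p = 0.111). With 2 libraries against 2, an exact test on 1 gene has a smallest possible p of 0.333.

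**Figure D3:**
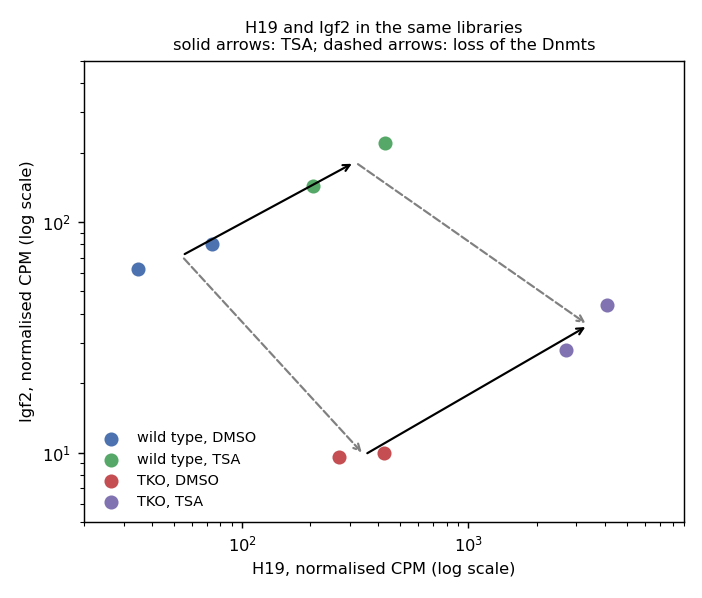
Normalised CPM of Igf2 against that of H19 on log axes, 1 point per library, with solid arrows between group means from DMSO to TSA and dashed arrows from wild type to TKO. The solid arrows run up and to the right in both genotypes, and the dashed arrows run down and to the right in both treatments.

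Markers of other cell types were read beside these results, since H19 and Igf2 are known to be abundant in extraembryonic and mesenchymal tissue. In bulk RNA, fewer cells of a type and less RNA per cell cannot be told apart. The 8 trophoblast markers summed to 24.5 to 28.1 CPM in control wild type cells, 86.4 to 90.0 in TSA-treated wild type cells, 7.80 to 10.2 in control TKO cells and 53.7 to 67.4 in TSA-treated TKO cells. Of the 6 tested, 5 were higher with TSA in each genotype, Cdx2 and Hand1 in both (27% of all tested genes in wild type and 30.8% in TKO), and 3 were lower in TKO in DMSO (10.7% of all tested genes). Tpbpa, a marker of placental spongiotrophoblast, had no counts, and Prl3d1, of giant cells, had none in 7 of 8 libraries. The 10 endoderm markers summed to 14.8 to 16.9, 24.8 to 28.1, 38.2 to 40.1 and 49.98 to 60.6 CPM in the same order of groups, with 5 of 8 tested higher in TKO in DMSO (9.62% of all tested genes). Ttr was at 0 in wild type and near 0 in TKO. The 8 mesenchyme markers summed to 81.7 to 110 CPM in control wild type cells, 97.8 to 107 in TSA-treated wild type cells, 14.3 to 14.8 in control TKO cells and 40.4 to 56.6 in TSA-treated TKO cells. With TSA in wild type 4 of 8 were higher and 2 lower (27% and 25.9% of all tested genes). In TKO in DMSO 4 were lower and none higher (10.7% and 9.62% of all tested genes). The number higher was also 0 at an unadjusted p below 0.05 and by DESeq2. With TSA in TKO 7 were higher (30.8% of all tested genes). Lum and Postn of this list, and Elf5 of the trophoblast list, had at most 0.648 CPM in any DMSO library. They passed the filter on low counts through their TSA libraries and could hardly be called lower with TSA, which raises the numbers higher with TSA. The 8 mesoderm markers summed to 9.64 to 19.1 CPM over the 8 libraries. The 8 embryonic stem cell markers summed to 3122 to 3372 CPM in control wild type cells, 1807 to 2045 in TSA-treated wild type cells, 3894 to 4390 in control TKO cells and 2190 to 2400 in TSA-treated TKO cells, and 6 of 8 were lower with TSA in each genotype (25.9% of all tested genes in wild type and 27.9% in TKO). The part of these shifts in the levels of H19 and Igf2 was not tested.

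Within 300 kb of the interval spanned by H19 and Igf2 the table lists 16 other genes, of which 9 were tested. With TSA, 6 of 9 were called higher by edgeR and none lower in each genotype (0 lower also at an unadjusted p below 0.05 and by DESeq2), where 27% of all tested genes in wild type and 30.8% in TKO were called higher. The median log2 fold change of the 9 was 1.50 in wild type and 2.76 in TKO, against 0.01 and 0.04 over all tested genes. The genes called were Ctsd, Syt8, Tnni2, Gm14492 and Tnnt3 in both genotypes, with Igf2as in wild type and Lsp1 in TKO. Several started from almost no reads. Syt8, Tnni2 and Gm14492 had 0 to 7 counts in the DMSO libraries and passed the filter on low counts through their TSA libraries. They could hardly be called lower with TSA, so the 6 of 9 and the medians are raised by how these genes were admitted. Tnnt3, a skeletal muscle troponin T gene, had 6 to 12 counts in control wild type cells and 86 to 112 with TSA (adjusted p = 0.000236), and 7 to 10 and 93 to 201 in TKO. Tnni2, a troponin I gene, went from 0 to 2 counts to 19 to 24 in wild type, and Syt8 from 1 to 2 counts to 19 to 22. Ctsd, which encodes the lysosomal protease cathepsin D, was at 394 ± 23.7 CPM (SD, n = 2) in control wild type cells and 572 ± 51.5 in TSA-treated wild type cells (0.54 ± 0.12, adjusted p = 0.00342). The Gm14492 call in wild type was lost without control wild type replicate 2 (adjusted p = 0.0677) or TSA-treated wild type replicate 2 (0.0524). The Ctsd call in TKO was lost without control TKO replicate 1 (0.0885) or TSA-treated TKO replicate 2 (0.151).

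Between genotypes the neighbours mostly did not pass the test. In DMSO 2 of 9 were called lower in TKO by edgeR and none higher (0 also at an unadjusted p below 0.05 and by DESeq2). Of all tested genes, 10.7% were called lower and 9.62% higher in DMSO, and 8.38% and 10% in TSA. Lsp1, an F-actin binding protein gene of leukocytes, went from 39 to 52 counts in wild type to 6 in each TKO library (SE of the log2 fold change 0.42, adjusted p = 0.000697). Igf2as, transcribed from the opposite strand across the 5′ end of Igf2, was at 2.96 ± 0.753 CPM in control wild type cells, 8.46 ± 0.138 in TSA-treated wild type cells, 0.911 ± 0.259 in control TKO cells and 1.70 ± 0.969 in TSA-treated TKO cells (SD, n = 2). Its difference between genotypes was -1.69 ± 0.42 in DMSO (adjusted p = 0.0166) and -2.30 ± 0.35 in TSA (adjusted p = 0.00138), the same direction as Igf2. The call in DMSO was lost without control wild type replicate 1 (adjusted p = 0.114), control TKO replicate 1 (0.0515) or control TKO replicate 2 (0.126). Igf2as shares 98 exon bases with Igf2, 2.31% of Igf2, and whether the counting used strand is not given in the sources used here, so reads of that stretch cannot be told apart. In TSA, Tnni2 was also called higher in TKO (1.82 ± 0.45, adjusted p = 0.0169), a call lost without TSA-treated wild type replicate 1 (0.134) or TSA-treated TKO replicate 2 (0.15). Mrpl23, the mitochondrial ribosomal protein gene downstream of H19, and Th, the tyrosine hydroxylase gene beyond Igf2, were not called with TSA or between genotypes in either treatment. Ins2, the insulin gene next to Igf2, had 0 to 6 counts and was not tested.

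**Figure D4:**
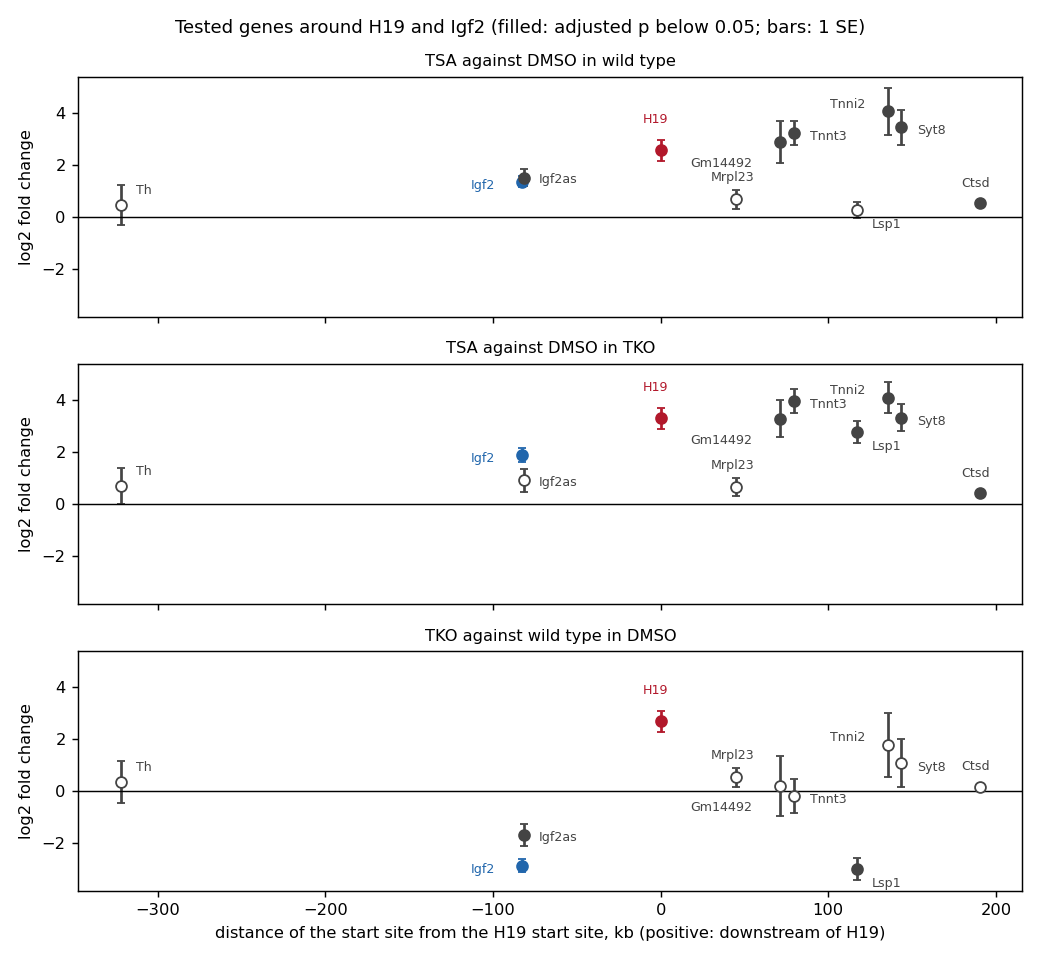
Log2 fold change of the tested genes against the distance of their start site from that of H19 in kb, for TSA in each genotype and for TKO in DMSO, with bars of 1 standard error and filled points for adjusted p below 0.05. The genes around H19 lie mostly above 0 with TSA, and in the TKO panel H19 lies above 0 while Igf2, Igf2as and Lsp1 lie below.

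Igf2 acts through the receptors Igf1r and Insr, and Igf2r takes it up for degradation. Insr was at 41.1 ± 2.46 CPM in control wild type cells, 62.5 ± 3.21 in TSA-treated wild type cells, 22.7 ± 0.590 in control TKO cells and 38.5 ± 3.49 in TSA-treated TKO cells (SD, n = 2). It was called higher with TSA in both genotypes and lower in TKO in both treatments, as Igf2 was. TSA-treated TKO and control wild type libraries overlapped for Insr and were not called different (adjusted p = 0.493), unlike those of Igf2. Igf1r was lower in TKO in DMSO, with a log2 fold change of -1.08 ± 0.14 (adjusted p = 0.000414). In TSA its difference was -0.50 ± 0.13 (adjusted p = 0.0257), a call lost without TSA-treated wild type replicate 1 (0.226), TSA-treated TKO replicate 1 (0.104) or TSA-treated TKO replicate 2 (0.0894). Igf2r, itself imprinted, was at 215 to 545.6 CPM over the 8 libraries and rose with TSA in both genotypes (1.01 ± 0.10 in wild type, adjusted p = 4.1e-05, and 0.69 ± 0.10 in TKO, adjusted p = 0.000217).

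Of 18 genes listed as other ligands, receptors and binding proteins of the system, 14 were tested. With TSA in wild type 7 were called higher and 5 lower (27% and 25.9% of all tested genes), and in TKO 7 higher and 3 lower (30.8% and 27.9%). Without TSA-treated wild type replicate 2 the 7 higher in wild type were 4. Stc2, a secreted inhibitor of the protease Pappa, was lower with TSA (29.6 ± 7.11 to 4.56 ± 0.111 CPM in wild type, adjusted p = 8.12e-06), and so was Igfals, which encodes a carrier of the circulating ligands (2.92 ± 0.00585 to 0.669 ± 0.177 CPM in wild type, adjusted p = 0.000621). Pappa itself also fell with TSA in wild type, from 3.99 ± 0.198 to 0.964 ± 0.0182 CPM (adjusted p = 0.00069). It stood at 0.173 ± 0.142 CPM in control TKO cells and 0.490 ± 0.0719 in TSA-treated TKO cells. Its difference between genotypes in DMSO was -4.44 ± 0.47 (adjusted p = 0.000146). Igfbp4 was higher with TSA (23.3 ± 1.50 to 51.04 ± 8.99 CPM in wild type, adjusted p = 0.0011). In TKO in DMSO 2 of the 14 were higher, Igf2r and Igfals, and 6 lower (9.62% and 10.7% of all tested genes). The Igf2r call there was lost without control TKO replicate 2 (adjusted p = 0.0593), and the 2 then were 1. In TKO in TSA none was higher by edgeR and 3 were lower (10% and 8.38% of all tested genes). The 3 were Igfbp4 (-1.66 ± 0.21, adjusted p = 0.000529), Insr and Igf1r. At an unadjusted p below 0.05, 2 were higher, and by DESeq2 0. Without either control wild type library 1 was higher. The median log2 fold change of the list was 0.55 for TSA in wild type and 0.72 in TKO, and -0.64 and -0.10 for TKO in DMSO and TSA. The other ligands Igf1, Ins1 and Ins2 had too few counts to be tested.

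Of 20 genes that relay the receptor signal, 4 were higher and 2 lower with TSA in wild type, shares below those of all tested genes (27% and 25.9%). In TKO 9 were higher and 4 lower, against 30.8% and 27.9%. Scaled by total counts alone, the 4 higher in wild type were 9 and the 4 lower in TKO were 1. The 2 lower in wild type were 1 without either TSA-treated wild type library, and the 4 lower in TKO were 1 or 2 without any 1 of the 4 TKO libraries. Between genotypes 3 were higher and 4 lower in TKO in DMSO, against 9.62% and 10.7% of all tested genes, and 6 higher and 2 lower in TSA, against 10% and 8.38%. The 3 were 1 without control TKO replicate 1, and the 6 were 2 without TSA-treated wild type replicate 1 or TSA-treated TKO replicate 2. The receptor adaptors Irs1 and Irs2 were the members that fell furthest in TKO, Irs1 from 29.7 ± 10.4 to 3.62 ± 0.590 CPM in DMSO (log2 fold change -3.03 ± 0.25, adjusted p = 2.73e-05) and Irs2 from 39.1 ± 12.3 to 8.63 ± 0.0728 (-2.18 ± 0.21, adjusted p = 7.07e-05). Pik3r1, a regulatory subunit gene of PI3-kinase, rose with TSA, from 33.4 ± 1.13 to 69.8 ± 4.54 CPM in wild type and from 46.5 ± 4.76 to 125 ± 6.13 in TKO. Pik3r2, another such gene, went the other way, from 91.8 ± 14.7 to 52.3 ± 7.65 CPM in wild type (log2 fold change -0.81 ± 0.13, adjusted p = 0.000534). In TKO it went from 72.8 ± 1.07 to 45.0 ± 2.79 CPM.

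Most of the listed genes for proteins that bind Igf2 mRNA, or act beside them, were lower with TSA. Of Igf2bp1, Igf2bp2, Igf2bp3, Lin28a and Lin28b, 4 of 5 were called lower in each genotype (25.9% of all tested genes in wild type and 27.9% in TKO), with a median log2 fold change of -0.95 in wild type and -0.85 in TKO. Igf2bp1, an mRNA binding protein named for Igf2, went from 1437 ± 51.4 to 855 ± 78.7 CPM in wild type (adjusted p = 0.000158) and from 1178 ± 25.8 to 690.2 ± 69.8 in TKO (adjusted p = 8.45e-05). Igf2bp2 was the member not called. In DMSO none of the 5 was called between genotypes by edgeR (20.4% of all tested genes). At an unadjusted p below 0.05, 1 was higher and 2 were lower, and DESeq2 called 1 higher. In TSA Igf2bp2 was called higher in TKO (0.65 ± 0.14, adjusted p = 0.00972), a call lost without TSA-treated wild type replicate 1 (0.0572).

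A list of 15 genes held Ctcf, its relative Ctcfl, cohesin and its regulators, and genes for proteins linked to methylation at imprinting control regions. Of these, 8 were called lower with TSA in each genotype. The cohesin part is Rad21, Smc1a, Smc3, Stag1, Stag2, Nipbl and Wapl, so the 8 are not all readers or protectors of methylation. Of all tested genes, 25.9% were lower in wild type and 27.9% in TKO. With TSA 2 of the 15 were higher in wild type and 1 in TKO (27% and 30.8% of all tested genes). The 8 lower in wild type include Setdb1 (-0.22, adjusted p = 0.0488). Its call was lost under 15 of 16 alternatives, among them edgeR with scaling by total counts alone (adjusted p = 0.893). The 8 lower in TKO were 5 without control TKO replicate 1 and 4 when scaled by total counts alone. Ctcf, the insulator protein of the pair's control region, was at 219 ± 9.07 CPM in control wild type cells, 145 ± 3.50 in TSA-treated wild type cells, 179 ± 22.5 in control TKO cells and 117 ± 15.3 in TSA-treated TKO cells (SD, n = 2). It fell with TSA in both genotypes (-0.59 ± 0.12, adjusted p = 0.00141, and -0.61 ± 0.11, adjusted p = 0.00094). Zfp57, a zinc finger protein that keeps imprints methylated, and its cofactor Trim28 also fell with TSA, Zfp57 from 232 ± 6.84 to 112 ± 20.7 CPM and Trim28 from 2359 ± 92.9 to 1407 ± 56.1 in wild type (adjusted p = 0.00026 and 5.87e-05). Dppa3, which guards methylation in the early embryo, was higher with TSA in both genotypes, and Ctcfl, a germline relative of Ctcf, in wild type. Between genotypes in DMSO, Ctcfl was called higher in TKO, from 1.38 ± 0.339 to 15.7 ± 3.97 CPM (3.51 ± 0.29, adjusted p = 2.43e-05), and Stag2, a cohesin subunit, lower (-0.57 ± 0.13, adjusted p = 0.0111). The Stag2 call was lost without control wild type replicate 2 or control TKO replicate 2, with an adjusted p of up to 0.12. In TSA 3 of the 15 were higher in TKO and none was lower by edgeR (1 at an unadjusted p below 0.05, 0 by DESeq2), and the 3 were 1 without TSA-treated wild type replicate 1 or TSA-treated TKO replicate 2. Of all tested genes, 9.62% were called higher and 10.7% lower in TKO in DMSO, and 10% and 8.38% in TSA. The cohesin subunit Rad21 was at 314 to 341 CPM in the 4 group means and was not called in any comparison.

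Of 9 imprinted genes placed in a network with H19 and Plagl1, 7 were tested. With TSA 3 were higher and 1 lower in wild type (27% and 25.9% of all tested genes), and 4 higher and 2 lower in TKO (30.8% and 27.9%). The 1 lower was 2 without control TKO replicate 2 or either TSA-treated TKO library. Between genotypes 4 were higher and 2 lower in TKO in DMSO (9.62% and 10.7% of all tested genes). The 4 were 2 without either control TKO library, and the 2 were 1 without control wild type replicate 1 or either control TKO library. In TSA 2 were higher and none was lower by edgeR (0 lower also at an unadjusted p below 0.05 and by DESeq2). Of all tested genes, 10% were higher and 8.38% lower there. Plagl1, a zinc finger protein that can bind at the H19 and Igf2 locus, was at 9.39 ± 4.57 CPM in control wild type cells, 25.8 (23.6 and 28.1) in TSA-treated wild type cells, 16.8 ± 1.96 in control TKO cells and 72.6 ± 10.0 in TSA-treated TKO cells (SD, n = 2). Like H19 it was lowest in control wild type cells and highest in TSA-treated TKO cells. Of the groups between, its control TKO libraries lay below its TSA-treated wild type libraries, while those of H19 overlapped. It was higher with TSA in both genotypes (1.44 ± 0.25, adjusted p = 0.000791, and 2.11 ± 0.23, adjusted p = 2.91e-05) and higher in TKO in TSA (1.49 ± 0.22, adjusted p = 0.0014). Its call in DMSO (0.83 ± 0.26, adjusted p = 0.0438) was lost without control wild type replicate 2 (0.166), control TKO replicate 1 (0.204) or control TKO replicate 2 (0.0977). Mest rose with TSA in TKO from 283 ± 34.5 to 687 ± 78.1 CPM (1.28 ± 0.11, adjusted p = 7.53e-06).

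The genes whose log2 CPM over the 8 libraries was most like that of H19 were Gm9 (r = 0.997), 9430018G01Rik (0.996), Plin5 (0.995), Uba1y (0.995) and Prpf18 (0.995), among 14420 tested genes whose mean was 1 CPM or more. Their sizes of change differed widely. Gm9, on chromosome X, went from 0.355 CPM in control wild type cells through 2.06 and 2.45 to 15.2 in TSA-treated TKO cells, while Prpf18, a splicing factor gene, went from 67.5 through 84.7 and 82.2 to 110 CPM. Uba1y, on the Y chromosome, has a close X copy and its counts are uncertain. The genes most like Igf2 were Dsc2 (r = 0.990), Igfbp4 (0.987), Efha1 (0.984), Insr (0.984) and F3 (0.984). Dsc2, a desmosomal cadherin gene, was at 27.8, 64.8, 2.93 and 11.9 CPM in control wild type cells, TSA-treated wild type cells, control TKO cells and TSA-treated TKO cells. The r between H19 and Igf2 themselves was -0.22. These coefficients describe 8 libraries in 4 groups, which largely set them, and carry no test.

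**Figure D5:**
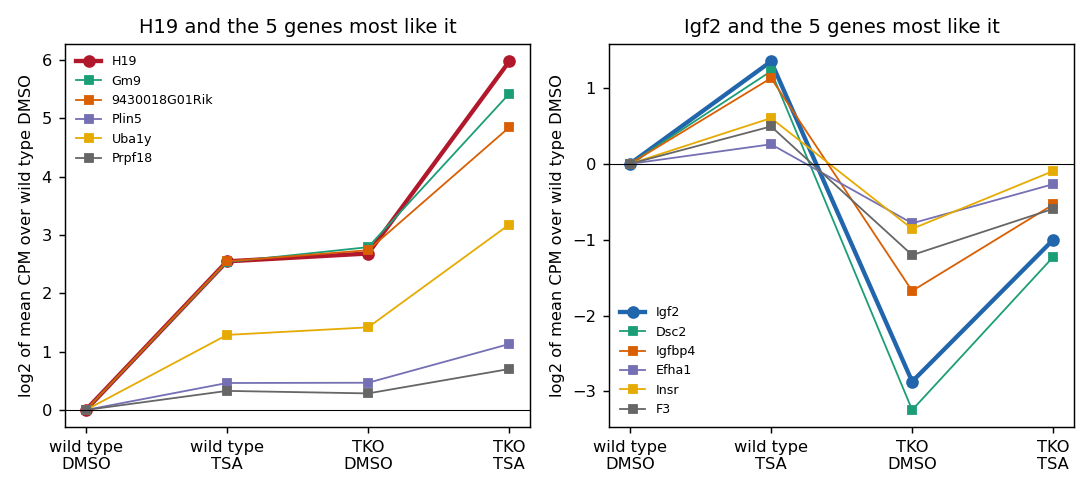
Mean CPM of each group relative to control wild type cells, on a log2 scale, of H19 and the 5 genes most like it, and of Igf2 and the 5 genes most like it. The H19 set peaks in TSA-treated TKO cells, and the Igf2 set is lowest in control TKO cells.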

How the data were processed

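RNA was measured in 8 libraries, 4 groups of 2. Per the labels' protocols, total RNA was depleted of ribosomal RNA and sequenced as paired reads from a strand-directional kit. The authors deposited raw read counts per gene with exon coordinates and summed exon lengths in bases. The submitters' processing notes name TopHat2 2.0.13, featureCounts 1.4.5-p1, edgeR 3.22.3 and build mm10. Strand setting and treatment of reads that match several places are not given in the sources used here. Libraries held 13280631 to 15542527 counts, so 3 counts stand for 0.193 to 0.226 CPM, and such floors cover counting error only.

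Those counts entered the quasi-likelihood test of edgeR 4.0.16 under R 4.3.3. Low counts were removed by filterByExpr, leaving 15822 genes, and TMM set the scaling. A single model held 4 group means over the 8 libraries (4 residual degrees of freedom). The 6 contrasts were tested two-sided, p-values were adjusted by Benjamini-Hochberg over all tested genes, with a call where the adjusted value was under 0.05. Standard errors are approximate, the log2 fold change divided by the root of F. Folds are ratios of mean CPM. RPKM divides CPM by the deposited exon length. The fit was tested on simulated counts. Alternatives were other scalings, no filter, robust fitting, a replicate block, fits of the compared groups alone, DESeq2 1.42.0, and leaving out each library.

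The pair, the gene lists and the marker lists were chosen with earlier results of these data known. Names follow a rule: both members, every neighbour within 300 kb, from each list and contrast up to 5 called genes by size of change where the mean reached 1 CPM, the 3 targeted genes, and the 5 genes most correlated with each member. The receptors Igf1r, Insr and Igf2r, the gene Rad21, and the marker genes were named with their values in view. All list symbols were looked up in the table, where Wapl stands as Wapal. The other 118 samples were not used here.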

Additional observations from a re-analysis of the deposited data

Results flagged for a closer look

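With 2 libraries a group, no library could be tested for standing apart from the others of its group. In the main fit neither H19 nor Igf2 passed the test of the difference in TSA effect between the genotypes, which 1.35% of all tested genes passed. Among the neighbours and the pathway lists 5 genes passed it, and in the marker lists 3, each with a higher TSA effect in TKO (edgeR, adjusted over all genes). Each call was tried under 15 alternatives.

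Igfbp3, an IGF binding protein gene, differed by 2.36 on the log2 scale (adjusted p = 0.00521), a call lost without control TKO replicate 2 (0.0504). With TSA it was higher in TKO (1.77, adjusted p = 3.63e-05) and lower in wild type (-0.59, adjusted p = 0.0247). The wild type call was lost without control wild type replicate 1 (-0.26, adjusted p = 0.267) or TSA-treated wild type replicate 1 (0.147), and with scaling by total counts (0.122) or the upper quartile (0.0786). Pappa, at under 5 CPM in each group, differed by 3.47 (adjusted p = 0.045), lost under 11 alternatives, among them the removal of any 1 of the 8 libraries.

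Mest differed by 0.94 (adjusted p = 0.026), lost without control wild type replicate 1, TSA-treated wild type replicate 1, control TKO replicate 2 or TSA-treated TKO replicate 2 (adjusted p up to 0.145). Cdkn1c, an imprinted cell cycle inhibitor gene, differed by 1.55 (adjusted p = 0.0348), lost with robust fitting and without TSA-treated wild type replicate 1, either control TKO library or TSA-treated TKO replicate 2 (up to 0.167). Lsp1 differed by 2.51 (adjusted p = 0.0455), lost under 8 alternatives, 6 of them the removal of a library other than control wild type replicate 2 and TSA-treated TKO replicate 1 (up to 0.193).

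The marker genes were named after their values were seen. Eomes, of the trophoblast list, differed by 2.79 (adjusted p = 0.00533), a call kept under all 15. Of the mesenchyme list, Col1a1 differed by 3.05 (adjusted p = 0.0287), lost without control wild type replicate 1, TSA-treated wild type replicate 1 or either control TKO library (up to 0.156). Col3a1 differed by 4.41 (adjusted p = 0.0438), lost without control wild type replicate 1, TSA-treated wild type replicate 2 or any 1 of the 4 TKO libraries (up to 0.199).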

How the results depend on the processing

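Of 190 alternative values of H19 and Igf2 in the 6 contrasts, 189 kept the direction and the side of the threshold, and none reversed. The exception was the H19 interaction, which passed the test with the replicate number as a block (0.76, adjusted p = 0.0277) and under its other alternatives had an adjusted p of 0.238 to 0.946. Blocking on the number gave an Igf2 interaction of 0.51 (adjusted p = 0.154) and changed no other call of the pair. The labels do not say what the number marks. Deviations of same-numbered libraries correlated across genes with a positive r in all 6 pairs of groups, from 0.0673 to 0.325. The main fit still did not pair the libraries by number, since its meaning is not given. Whether same-numbered libraries shared a culture or handling was not tested. Replicate 2 was above replicate 1 in 4 of 4 groups for both genes, as for 12.2% of tested genes, and 11.7% were below in all 4.

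With labels permuted freely over the libraries, the genotype difference of the level ratio (5.72) had an exact permutation p = 0.0286. This is the smallest that the 70 arrangements allow. The TSA difference then had an exact permutation p = 0.514, where the free arrangements also mix the genotypes, whose ratios lie far apart. The number of genes called moved most for the interaction, from 213 to 488 with no filter, 633 with the replicate block, 401 with DESeq2, and 10 to 410 when single libraries were left out. The range over left-out libraries was 1458 to 3331 for TKO in DMSO and 941 to 3443 for TKO in TSA. Of 950 list counts under alternatives, 105 moved by over 1.5 times, and of 5592 values of other named genes 205 lost and 97 gained a call, with no reversal. With 2 libraries a group the p-values rest on a spread shared across genes.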
